A study of Mus musculus with 30 samples.

Results

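The Hox genes encode homeodomain transcription factors that give cells of the embryo their position along the head-to-tail axis. In mammals they sit in 4 clusters, and within a cluster the gene numbers run in order along the chromosome. Low-numbered (anterior) genes are in general switched on early and reach far forward in the body, and high-numbered (posterior) genes later and further back. Chromatin domains with borders are known at these clusters, and CTCF, a DNA-binding protein that halts loops extruded by cohesin, occupies several of those borders in other cell types. RAD21 is a cohesin subunit. H3K9ac, acetylation of histone H3 at a lysine of its tail, marks active gene starts and enhancers.

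All protein-coding mouse genes named Hoxa, Hoxb, Hoxc or Hoxd with a number were taken, 39 of the 21887 protein-coding genes in the RefSeq table for chromosomes 1 to 19, X and Y. They comprised 11 Hoxa, 10 Hoxb, 9 Hoxc and 9 Hoxd genes. Each cluster was followed over a window from 20 kb before its first gene to 20 kb after its last. On mm10 these windows were chr6:52135367-52280880 for Hoxa (145.5 kb), chr11:96174316-96388254 for Hoxb (213.9 kb), chr15:102901131-103056856 for Hoxc (155.7 kb) and chr2:74648225-74785142 for Hoxd (136.9 kb).

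The cells were N1E115, a mouse neuroblastoma line, in a form that the labels call NOS1+. They were kept for 3 days at 4% O2 or at 20% O2, and no other agent is given. Chromatin immunoprecipitation with 6 antibodies, against CTCF, RAD21, H3K9ac, POLR2, POLR2S5 and POLR2S2, gave 24 libraries, 2 for each antibody at each oxygen level. The last 3 recognise RNA polymerase II, and POLR2S5 and POLR2S2 are read here as the forms phosphorylated at serine 5 and serine 2 of its repeated tail, which the labels do not spell out. All groups come from the same line, and nothing says that replicates were separate cultures, so p-values measure only the spread between these libraries.

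A list held 26908 to 126873 calls for CTCF, RAD21 or H3K9ac, and 11172 to 24635 islands holding 2057835 to 16597869 reads for a polymerase form. In each polymerase form the 20% O2 replicate 1 library had the fewest island reads, 2057835 for POLR2, 5926664 for POLR2S5 and 4874802 for POLR2S2. Replicates 1 and 2 were sequenced on different flow cells, per the file headers. The labelled cell type was checked by acetylation at marker gene starts, or at either end of the gene where its strand was not known. Of 19 sympathetic neuroblast markers 14 were acetylated in all 4 H3K9ac libraries. Over 17509 protein-coding genes of known strand, scored at the start alone, the share was 50%. Nos1, the gene that the NOS1+ label names, is on this marker list and went the other way. It had H3K9ac, POLR2 and POLR2S5 in 0 of 4 libraries and POLR2S2 in 3. The counts were 0 of 7 endothelial, 1 of 7 macrophage, 0 of 6 fibroblast, 2 of 6 Schwann cell or oligodendrocyte and 1 of 5 astrocyte markers. The strand was known for 13, 5, 4, 3, 1 and 4 markers of these lists, in the same order.

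Sequences of 4 microRNAs that lie in the clusters are shown first, because their seeds pair them across clusters that differed in polymerase. The capitals mark the seed, bases 2 to 8 of the mature strand, and the sequences are from RefSeq.
miR-196a-5p: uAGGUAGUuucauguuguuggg
miR-196b-5p: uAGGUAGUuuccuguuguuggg
miR-10a-5p: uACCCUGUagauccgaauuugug
miR-10b-5p: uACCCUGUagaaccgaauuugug
miR-196a-5p is encoded in Hoxb by Mir196a-1 and in Hoxc by Mir196a-2, and miR-196b-5p in Hoxa by Mir196b. These share the seed AGGUAGU. miR-10a-5p (Mir10a, in Hoxb) and miR-10b-5p (Mir10b, in Hoxd) share the seed ACCCUGU.

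Promoters of 3 Hox genes are shown because they differ in CpG dinucleotides and in acetylation within 1 kb of the start. Each run is the 250 bases before the RefSeq start (GRCm38.p6, the assembly of mm10), read along the gene, with CG in capitals. Hoxd12 lies on the plus strand at chr2:74674763-74675012, Hoxd13 on the plus strand at chr2:74667975-74668224 and Hoxa13 on the minus strand at chr6:52260881-52261130.
Hoxd12: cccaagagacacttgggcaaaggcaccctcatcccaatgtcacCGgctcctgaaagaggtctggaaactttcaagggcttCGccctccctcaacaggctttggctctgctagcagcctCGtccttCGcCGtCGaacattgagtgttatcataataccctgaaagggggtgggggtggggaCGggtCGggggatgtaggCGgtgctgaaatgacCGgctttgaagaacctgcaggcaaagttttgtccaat
Hoxd13: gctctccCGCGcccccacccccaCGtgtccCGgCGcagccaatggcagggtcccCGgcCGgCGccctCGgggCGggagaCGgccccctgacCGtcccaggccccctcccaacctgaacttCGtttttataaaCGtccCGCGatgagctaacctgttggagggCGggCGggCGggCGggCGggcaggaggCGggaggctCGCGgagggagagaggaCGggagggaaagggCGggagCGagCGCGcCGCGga
Hoxa13: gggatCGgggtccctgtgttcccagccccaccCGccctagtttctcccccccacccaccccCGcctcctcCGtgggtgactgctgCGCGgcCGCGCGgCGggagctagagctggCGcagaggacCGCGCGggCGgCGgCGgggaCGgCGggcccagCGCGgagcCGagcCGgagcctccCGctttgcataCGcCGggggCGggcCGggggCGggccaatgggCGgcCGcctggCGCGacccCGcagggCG
The Hoxd12 run holds 10 CpG, the Hoxd13 run 31 and the Hoxa13 run 35. Hoxd12 had H3K9ac within 1 kb of its start in 4 of 4 libraries, Hoxd13 and Hoxa13 in 0 of 4. The stretch acetylated in all 4 libraries ended 874 bp before the Hoxd12 start, outside the bases shown. None of the 3 runs lay under an H3K9ac call in any library.

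The clusters differed in acetylation and polymerase. Hoxa and Hoxb had no H3K9ac call and no island of any polymerase form anywhere in their windows, in any of the 16 libraries of H3K9ac and polymerase. Hoxc had most of its acetylation and polymerase calls from Hoxc10 to Hoxc6. Hoxd had 1 acetylated spot in all 4 libraries, beside Hoxd12. A gene start was counted as called where a call touched the 1 kb to either side of the outer RefSeq start.

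H3K9ac was called at the start of 4 of 39 Hox genes in all 4 libraries, Hoxc6, Hoxc9, Hoxc10 and Hoxd12, against 50% of 17509 protein-coding genes of known strand. A further 2, Hoxc4 and Hoxc8, were called in 1 library, that of 4% O2 replicate 2, and 33 in none. By position in the body plan, 0 of 8 anterior genes (numbers 1 to 3), 1 of 15 central genes (4 to 8) and 3 of 16 posterior genes (9 to 13) were acetylated in all 4 libraries. Hox members share clusters, so their counts are not independent observations.

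**Figure D1:**
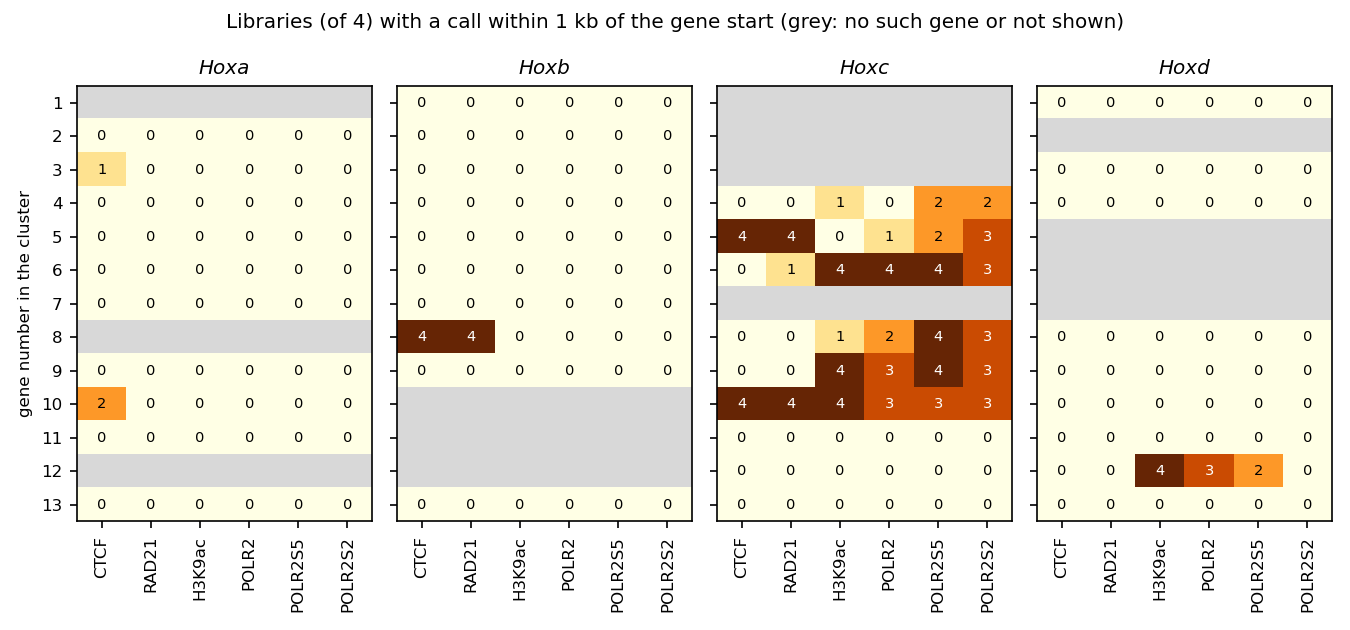
Number of libraries, of 4, with a call within 1 kb of the start of each Hox gene, for 6 antibodies (columns) and gene numbers 1 to 13 (rows) in each cluster; grey cells hold no gene or one not shown. Outside Hoxc, acetylation and polymerase appear only at Hoxd12, while CTCF and RAD21 are called in all 4 libraries at Hoxb8, Hoxc5 and Hoxc10.

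Polymerase was called at 0 to 3 Hox starts in all 4 libraries, by form. POLR2 was called at 1 of 39 Hox starts in all 4 libraries, Hoxc6, against 34.8% of genes. POLR2S5 was called at 3, Hoxc6, Hoxc8 and Hoxc9, against 42.9%. POLR2S2 was called at 0, against 21%. The sparse 20% O2 replicate 1 libraries set these counts: without that library POLR2 was called at 4 Hox starts and POLR2S2 at 4. The shares over all genes without it were not computed, so these 2 counts cannot be set against the percentages above.

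In Hoxa and Hoxb, 21 of 21 members had no H3K9ac and no polymerase call from 20 kb before to 20 kb after the gene in any of the 16 libraries, against 25.4% of genes. The same held for 2 of 9 Hoxc members and 1 of 9 Hoxd members. The nearest region acetylated in all 4 libraries lay far from Hoxa and Hoxb. For Hoxa it was 323.7 kb beyond the Hoxa13 end, inside Hibadh, a gene of valine breakdown. For Hoxb it was 117.7 kb beyond the Hoxb13 end, at the start of Atp5g1, which encodes a subunit of ATP synthase, and 407 kb beyond the Hoxb1 end, at Snx11, a sorting nexin.

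CTCF and RAD21 were still called in Hoxa and Hoxb, which had no acetylation or polymerase calls. In Hoxa, 3 CTCF regions and 2 RAD21 regions were called in all 4 libraries, and in Hoxb 4 and 3. The CTCF region at chr6:52256753-52257710, between Hoxa11 and Hoxa13, ranked at the 90.2 and 80.2 percentile of the 4% O2 lists and the 88.4 and 83.6 percentile of the 20% O2 lists, for replicates 1 and 2. A percentile is the share of calls in the same list whose score was no higher. The RAD21 region on it ranked between the 71.96 and 88.98 percentile. Beside Hoxb8, CTCF at chr11:96278753-96279177 and RAD21 at chr11:96278700-96279509 were called in all 8 libraries of those antibodies.

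**Figure D2:**
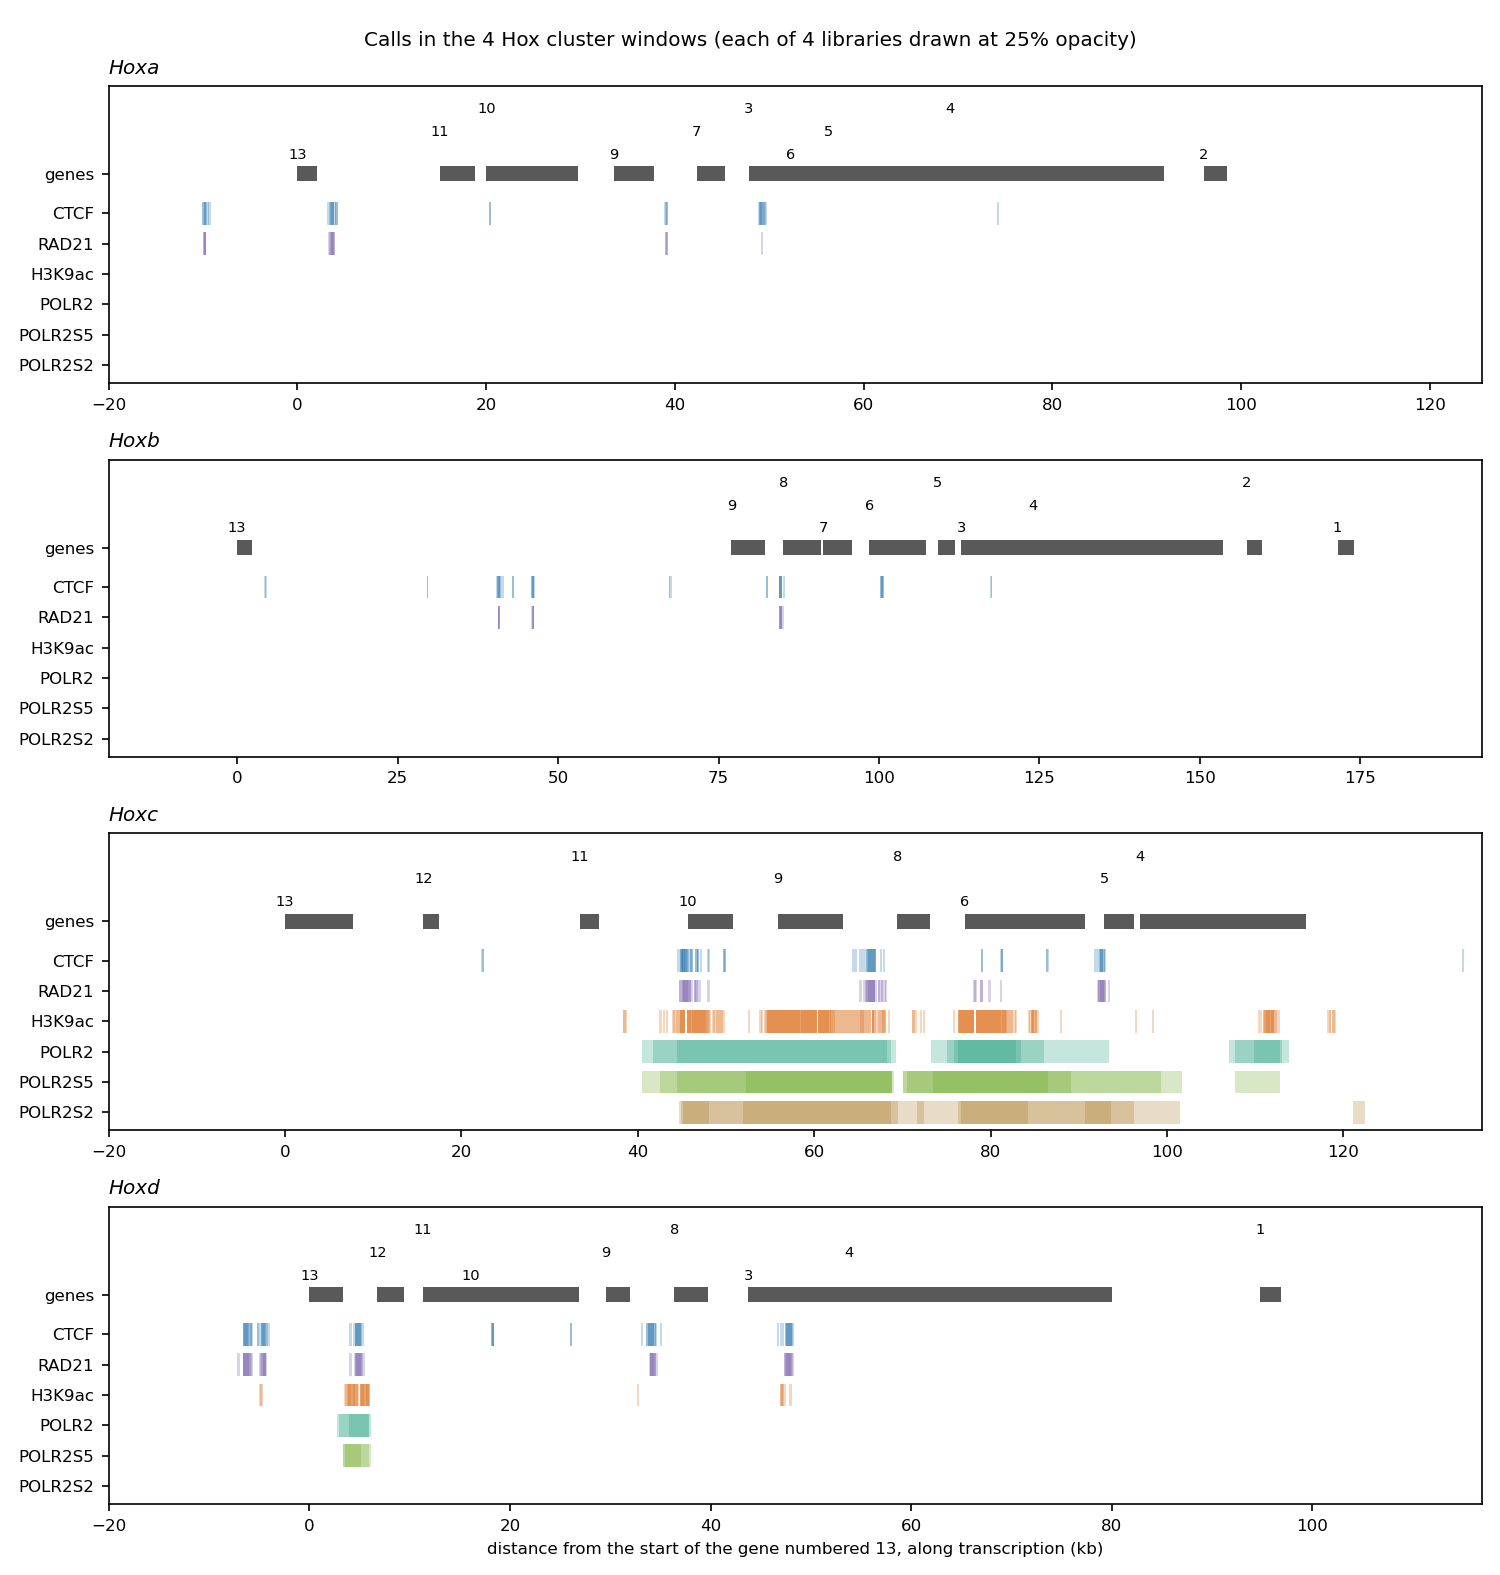
Calls across the 4 cluster windows, by distance in kb from the start of the gene numbered 13, along transcription. Rows are the genes (grey, numbered) and 6 antibodies, each of 4 libraries is drawn at 25% opacity so that darker means more libraries, and very short calls are widened to be visible. The acetylation and polymerase rows are empty in Hoxa and Hoxb, hold most calls from Hoxc10 to Hoxc6 in Hoxc, and hold a spot before Hoxd12 in Hoxd.

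In Hoxc, acetylation shared by all 4 libraries began at Hoxc10. Bases acetylated in all 4 libraries, joined over gaps of up to 5 kb, formed 4 stretches. The first, chr15:102965943-102968850 (2.908 kb), covered the Hoxc10 start. The second, chr15:102975746-102987900 (12.15 kb), covered Hoxc9. The third, chr15:102997571-103006069 (8.499 kb), covered the Hoxc6 start and part of its body. The last, chr15:103032351-103033218 (0.868 kb), lay inside Hoxc4, far from its outer start and just before the inner start of that gene at 103034395. Of 23879 such stretches in the genome, with a median of 1.472 kb, 1.541% were as long as the Hoxc9 stretch or longer.

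Outside this segment the posterior genes Hoxc11, Hoxc12 and Hoxc13 had no acetylation and no polymerase at their starts in any library. The Hoxc11 start lay 11.42 kb from the nearest base acetylated in all 4 libraries. On the other side, Hoxc5 was acetylated at its start in 0 of 4 libraries, 7.939 kb from the Hoxc6 stretch. Hoxc8, which lies between 2 acetylated stretches, was 2.639 kb from the nearer one.

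The first border of acetylation differed by replicate number more than by oxygen. In replicate 1 the first acetylated base was 102965937 at 4% O2 and 102965943 at 20% O2. In replicate 2 weak peaks lay further out, and the first base was 102959497 at 4% O2 and 102959481 at 20% O2. The far end over Hoxc6 had no such order, lying at 103009217 and 103006069 for 4% O2 against 103006389 and 103006443 for 20% O2. The longest joined stretch was 13.38 kb and 46.57 kb at 4% O2 (replicates 1 and 2) and 12.16 kb and 46.96 kb at 20% O2. With only the calls above the median score of their list, the first base was 102965937 and 102965127 at 4% O2 and 102966721 and 102965497 at 20% O2.

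**Figure D3:**
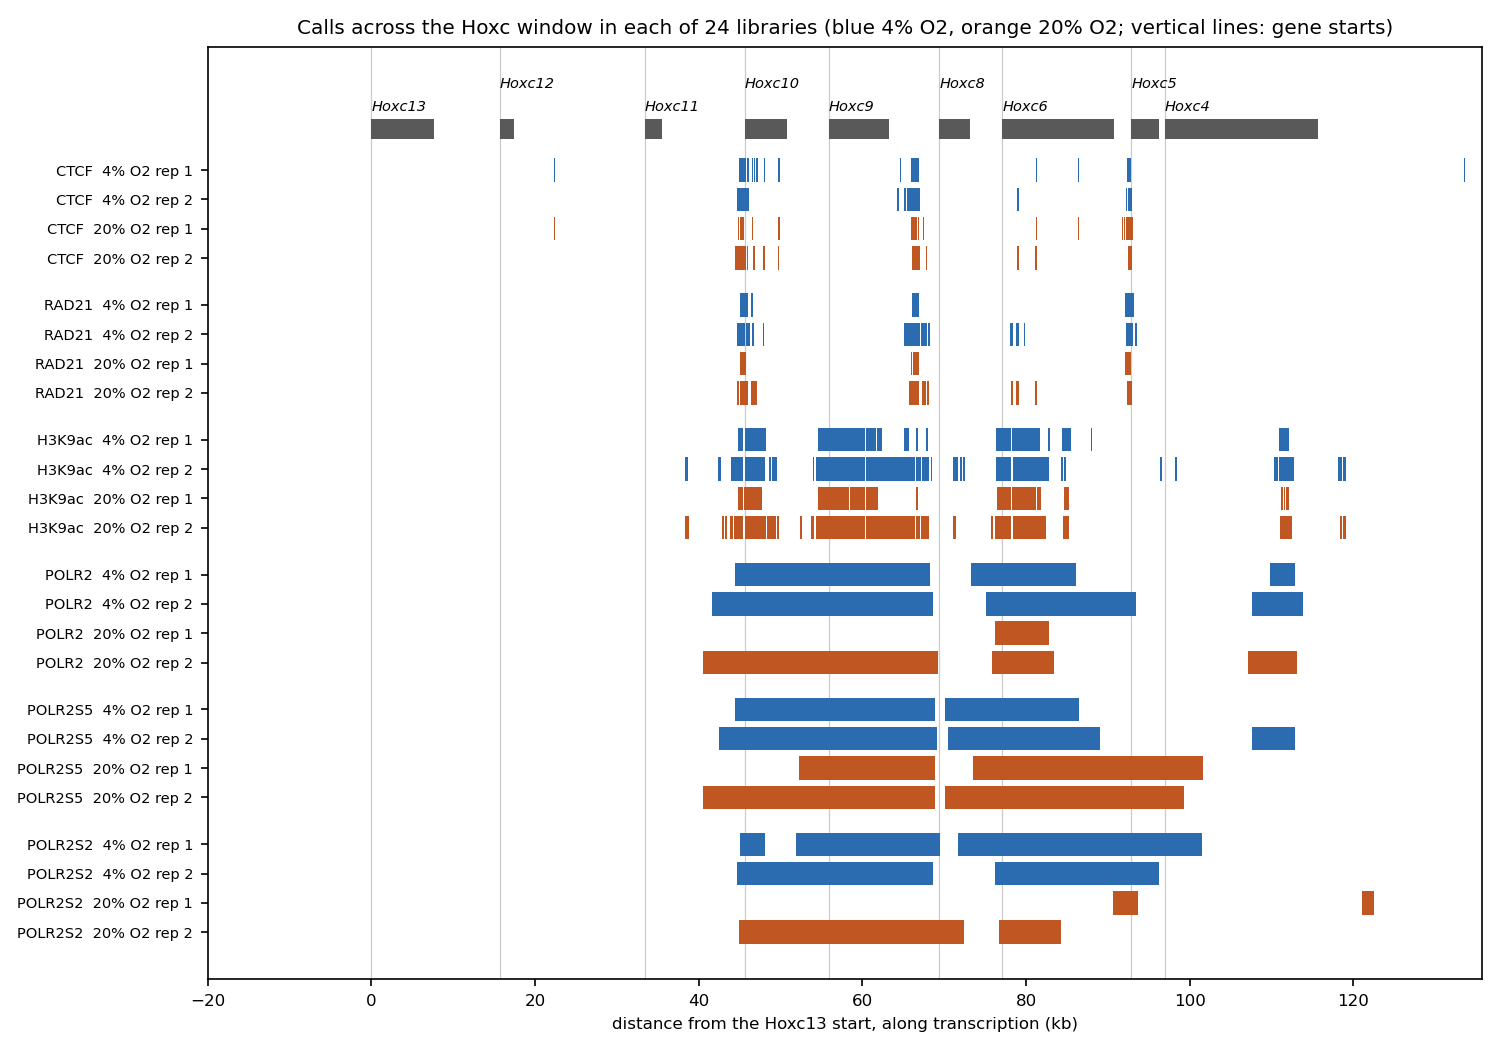
Calls in the Hoxc window in each of the 24 libraries, by distance in kb from the Hoxc13 start, with 4% O2 in blue and 20% O2 in orange, gene starts as vertical lines, and very short calls widened to be visible. Most acetylation and polymerase calls lie from Hoxc10 to Hoxc6, with only short POLR2 and POLR2S2 islands in 20% O2 replicate 1, and the starts of Hoxc13, Hoxc12 and Hoxc11 have none. The POLR2S5 island over Hoxc6 runs past the Hoxc5 start in both 20% O2 libraries and in neither of 4% O2.

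CTCF and RAD21 ranked high at the first border. The CTCF region chr15:102965586-102967320 holds the Hoxc10 start (102966796), and the first stretch acetylated in all 4 libraries began inside it. In both replicate 2 libraries acetylation began before the region, at 102959497 (4% O2) and 102959481 (20% O2). With only calls above the median score of their list it still did, at 102965127 and 102965497. So this edge at CTCF was seen in replicate 1 and in the bases shared by all 4 libraries. The CTCF region ranked at the 98.3 and 99.5 percentile of the 4% O2 lists and the 98.2 and 99.8 percentile of the 20% O2 lists. RAD21 at chr15:102965807-102967441 ranked at the 99.95, 99.78, 99.86 and 99.94 percentile in the same order. It was the highest-ranked RAD21 region of the 4 windows in every library.

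The second CTCF region, chr15:102986602-102988175, lay between Hoxc9 and Hoxc8, and the Hoxc9 stretch ended inside it. With only calls above the median score of their list, the stretch ended at 102983080 in 20% O2 replicate 1, short of that region. With gaps of up to 2 kb joined, or with those calls, the stretch was 7.335 kb long and did not reach the region, so this edge at CTCF depends on those settings. The CTCF region ranked at the 97.9, 98.1, 95.2 and 98.8 percentile, and RAD21 on it between the 97.67 and 99.29 percentile. The third, chr15:103013307-103014221, held the Hoxc5 start and lay 7238 bp beyond the end of the Hoxc6 stretch. The other edges were not at CTCF: the Hoxc9 stretch began 8426 bp, and the Hoxc6 stretch 9396 bp, from the nearest region called in all 4 libraries. So of the 4 edges of the Hoxc9 and Hoxc6 stretches 1 lay within 1 kb of such a region, against 32.67% of 5638 edges of stretches of 5 kb or longer in the genome.

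In Hoxd the acetylated stretch was chr2:74672082-74674139 (2.058 kb), between Hoxd13 and Hoxd12. It ended 874 bp before the Hoxd12 start, so Hoxd12 counts as acetylated through the 1 kb to either side and no longer does with 250 bp. It held the CTCF region chr2:74672537-74673659, which ranked between the 88.53 and 92.86 percentile, and RAD21 on it between the 88.71 and 96.83 percentile. The acetylation was moderate: the highest call ranked at the 59.2 and 94.3 percentile at 4% O2 and the 78.4 and 83.1 percentile at 20% O2. With only calls above the median of their list, 0.067 kb stayed acetylated in all 4 libraries. POLR2 islands covered the spot in 3 libraries, with 108 and 86 reads at 4% O2 and 146 reads in 20% O2 replicate 2, and POLR2S5 islands in the same 3 with 105, 56 and 146. Neither form had one there in 20% O2 replicate 1, and POLR2S2 had none in any library.

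The Hoxd12 neighbours had no acetylation at their starts. Hoxd13 lay 3.857 kb from the stretch and Hoxd11 5.419 kb, and POLR2 islands covered 17.85% and 11.93% of the Hoxd13 gene in 4% O2 replicate 1 and 20% O2 replicate 2. The other Hoxd genes, Hoxd10 to Hoxd1, had no acetylation or polymerase at their starts in any library. Small peaks inside Hoxd3, at chr2:74715171-74715735, were called in 3 of 4 H3K9ac libraries beside a CTCF region. Beyond the cluster, the nearest acetylation in all 4 libraries was 88.51 kb past the Hoxd13 end at Lnpk, which shapes the endoplasmic reticulum, and 60.22 kb past the Hoxd1 end at Mtx2, a mitochondrial import protein. For Hoxc it was 173.1 kb past the Hoxc13 end and 31.7 kb past the Hoxc4 end.

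At gene starts CTCF was called in all 4 libraries at 3 of 39 Hox genes, Hoxb8, Hoxc5 and Hoxc10, against 20.7% of genes. RAD21 was called at the same 3, against 8.61%. Hoxb8 counts through its outer start, and its inner RefSeq start at 96281905 lay more than 1 kb from both regions. With 2.5 kb to either side of the start the counts were 8 and 5, and the shares over all genes at that width were not computed. Over the 4 windows 16 CTCF regions were called in all 4 libraries, 3 in Hoxa, 4 in Hoxb, 3 in Hoxc and 6 in Hoxd. RAD21 regions numbered 2, 3, 3 and 5. Of the 16 CTCF regions 13 overlapped a RAD21 region of all 4 libraries (81.25%), against 51.67% in the genome. All 13 RAD21 regions overlapped CTCF, against 98.29%. The windows held 2.454 CTCF and 1.994 RAD21 regions per 100 kb, and the genome 1.494 and 0.7915. From Hoxa to Hoxd the CTCF values were 2.062, 1.87, 1.926 and 4.382, and those of RAD21 1.374, 1.402, 1.926 and 3.652. Hoxd was thus the highest for both. The genome was counted from the first to the last protein-coding gene of each chromosome, stretches without genes included.

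CpG-rich starts are often acetylated in these lists, and those of Hox genes mostly were not. The RefSeq promoter table (300 bases from 250 before to 50 after a start) matched 22 of 39 Hox genes with 24 promoters. These held 4 to 45 CpG with a median of 14.5, against a median of 13 over 21263 promoters. Of the promoters with 10 CpG or more, 78.83% of 12067 had H3K9ac within 1 kb of the start in all 4 libraries and 16.53% in none. Among 17 such Hox promoters 1 did, that of Hoxd12, and 16 had it in none. For 25 CpG or more the shares were 83.72% over all promoters and 0 of 6 for Hox promoters. The 17 Hox genes outside the table include Hoxc6, Hoxc9 and Hoxc10.

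**Figure D4:**
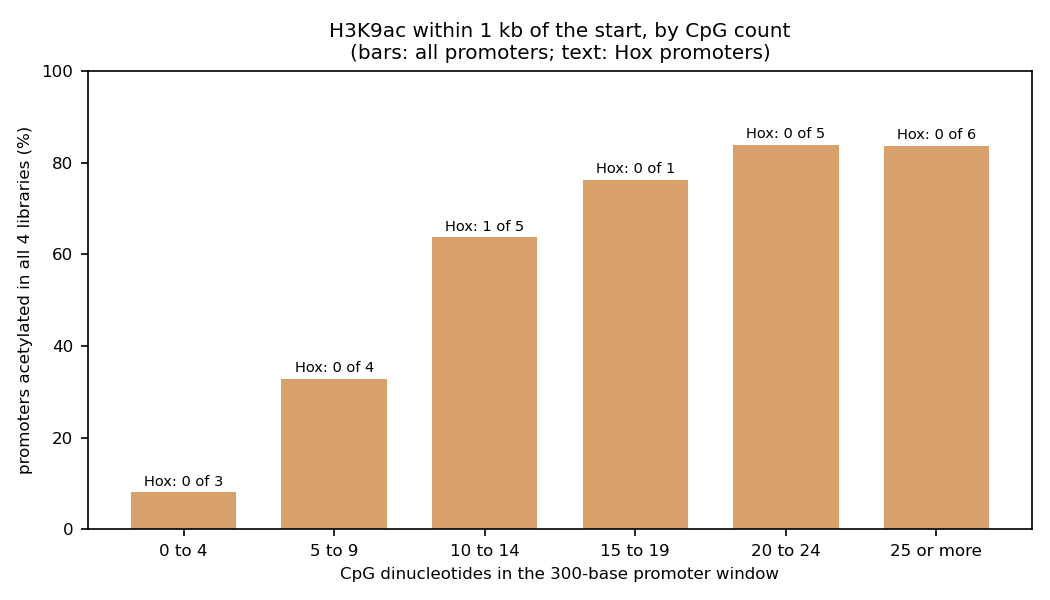
Percent of all promoters in the RefSeq table with H3K9ac within 1 kb of the start in all 4 libraries (bars, axis from 0), by number of CpG dinucleotides in the 300-base window, with the same count for Hox promoters as text. The share over all promoters reaches 83.89% at 20 to 24 CpG, where 0 of 5 Hox promoters are acetylated.

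At the microRNA genes, calls were limited to Hoxc. Mir196b, Mir196a-1, Mir10a and Mir10b had no H3K9ac and no polymerase call over the hairpin in any library. Mir196a-2, which encodes the miR-196a-5p printed above and lies between Hoxc10 and Hoxc9, lay under POLR2, POLR2S5 and POLR2S2 islands in 3 libraries each. In 20% O2 replicate 1 only a POLR2S5 island touched the hairpin, beginning inside it at 102973401, beyond miR-196a-5p at chr15:102973365-102973386. Its twin of the same mature sequence, Mir196a-1, had no polymerase call. Mir615, inside Hoxc5, lay under POLR2S5 in both 20% O2 libraries and neither of 4% O2, and under POLR2S2 in both 4% O2 libraries and neither of 20% O2. These are the islands over Hoxc6 whose far ends are given below, so Mir615 adds no separate observation. In 20% O2 replicate 1 a POLR2S2 island held the Hoxc5 start and covered 23.17% of that gene, ending just before Mir615. A share over all microRNA genes was not computed. No Hox microRNA lay under an H3K9ac call.

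The comparison of 4% with 20% O2 asked whether lower oxygen changed the extent of calls in the clusters. H3K9ac covered 21.54 and 33.6 kb of the 4 windows at 4% O2 and 18.95 and 32.4 kb at 20% O2, for replicates 1 and 2. The levels overlapped, and replicate 2 was higher at both. Within replicates 1 and 2 the 4% O2 library was higher, by 2.595 and 1.205 kb. Its list was also the longer over the genome, with 79516 calls against 71857 and 92649 against 84395. With lists cut to the shortest, the difference of the means was 0.92 kb instead of 1.9 kb. The means were 27.6 ± 8.53 kb and 25.7 ± 9.51 kb (SD, n = 2), with a two-sided exact permutation p of 0.667. With 2 libraries against 2 the smallest p possible is 0.333, so no such comparison can pass 0.05.

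CTCF covered 11.8 and 9.948 kb at 4% O2 and 12.78 and 13.76 kb at 20% O2. Both 4% O2 libraries were below both of 20% O2, by 2.39 kb in the mean (exact permutation p = 0.333). By cluster this order held in Hoxa, with 2.174 and 0.752 kb against 2.363 and 2.242 kb. The levels overlapped in Hoxb, Hoxc and Hoxd, and the Hoxc means were 3.72 and 3.716 kb. The 4% O2 list was the shorter in replicate 1 (124797 calls against 126873) and the longer in replicate 2 (81759 against 73200). Kilobases covered over the genome were not computed. RAD21 covered 8.484 and 10.95 kb at 4% O2 and 7.846 and 12.46 kb at 20% O2, with overlapping levels (exact permutation p = 1).

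POLR2 covered 42.8 and 53.8 kb at 4% O2 and 6.6 and 45.4 kb at 20% O2 (exact permutation p = 0.667). POLR2S2 covered 50.4 and 44 kb at 4% O2 and 4.4 and 35.2 kb at 20% O2 (exact permutation p = 0.333). The low values, 6.6 and 4.4 kb, belong to the 20% O2 replicate 1 libraries, which hold the fewest island reads, and the part of depth in these differences was not tested. In replicate 2 alone the differences were 8.4 kb for POLR2 and 8.8 kb for POLR2S2. POLR2S5 covered 43.4 and 52.2 kb at 4% O2 and 44.8 and 60.2 kb at 20% O2 (exact permutation p = 0.667). Adjusted over the 6 antibodies the p-values were 0.8 to 1.

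**Figure D5:**
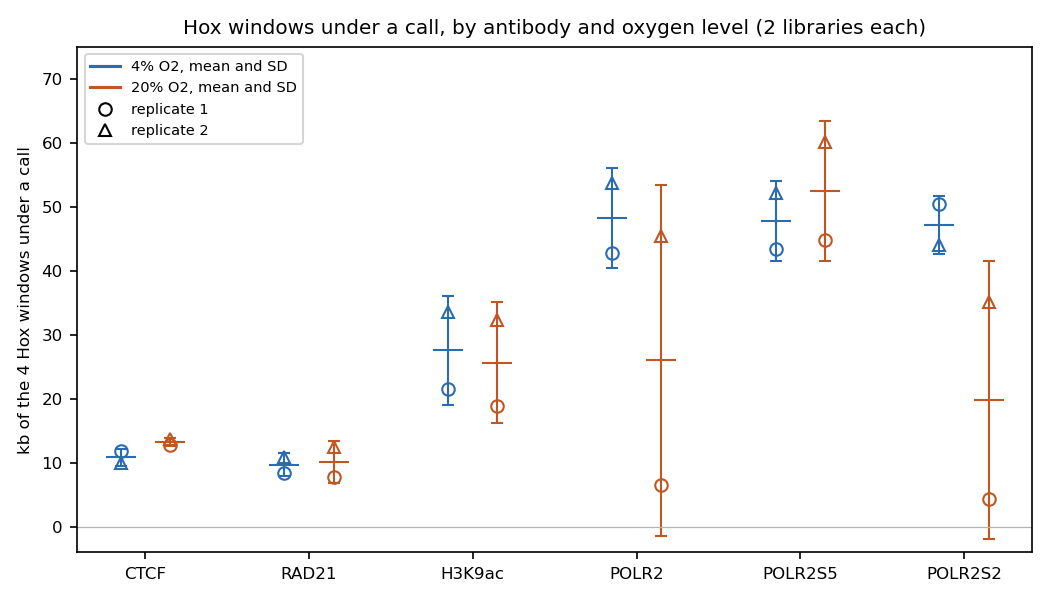
Kilobases of the 4 Hox windows under a call in each library, for 6 antibodies at 4% O2 (blue) and 20% O2 (orange), with the mean and SD of 2 libraries as a line and bars, replicate 1 as circles and replicate 2 as triangles. For POLR2 and POLR2S2 the 20% O2 replicate 1 library sits far below the others, at 6.6 and 4.4 kb.

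Calls seen at only 1 oxygen level were few. No Hox start had CTCF, RAD21, H3K9ac or POLR2 in both libraries of 1 level and in neither of the other. The shares over all genes were, for 4% O2 only and 20% O2 only, 1.18% and 0.0571% for CTCF, 0.457% and 0.0971% for RAD21, 0.0685% and 0.103% for H3K9ac, and 0.331% and 0.103% for POLR2. POLR2S5 was called at Hoxc4 and Hoxc5 in both 20% O2 libraries only, 2 of 39 against 0.2% of genes, and at 0 Hox starts at 4% O2 only, against 0.154%. POLR2S2 was called at Hoxc4 in both 4% O2 libraries only, 1 of 39 against 2.79% of genes, and at 0 at 20% O2 only, against 0.12%. Hoxc5 and Hoxc4 are neighbours under the same islands, so they are 1 observation.

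That observation concerns the far end of the islands over Hoxc6. The POLR2S5 island over the Hoxc6 start ended at 103007600 and 103010200 at 4% O2 (replicates 1 and 2) and at 103022800 and 103020400 at 20% O2. At 4% O2 it stopped before the Hoxc5 start (103014008), and at 20% O2 it ran past the Hoxc4 start (103018097), with 10.2 kb between the nearest ends. The longer islands were thinner, with 35 and 52.4 reads per kb at 20% O2 against 88.5 and 76.5 at 4% O2. A separate POLR2S5 island inside Hoxc4, chr15:103028801-103034000 with 184 reads, was called in 4% O2 replicate 2 alone. POLR2 and POLR2S2 had the opposite order. For POLR2 the 4% O2 ends were 103007200 and 103014600, and those of 20% O2 were 103004000 and 103004600. POLR2S2 ended at 103022600 and 103017400 at 4% O2 and at 103005400 in 20% O2 replicate 2. The 20% O2 replicate 1 library had no POLR2S2 island on the Hoxc6 start, and an island of 74 reads at chr15:103011801-103014800. The lists give reads per island and not along it, so the reads in the last stretch could not be compared.

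Island reads were compared over all regions called in all 4 libraries of a form with edgeR's quasi-likelihood test, on reads in islands. For POLR2, 0% of 7811 regions passed an adjusted p of 0.05 in either direction, for POLR2S5 0% of 9933 and for POLR2S2 0% of 5936. At an unadjusted p under 0.05 there were 174, 288 and 349 regions, and DESeq2 called 1, 19 and 53. With the replicate number as a block edgeR passed 2, 3 and 11 regions, none of them in a Hox window. Leaving out 20% O2 replicate 2 passed 195 POLR2 and 50 POLR2S5 regions.

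All Hox regions in these fits lay in Hoxc. The POLR2 region over Hoxc6, chr15:102994401-103014600, held 959 and 1372 reads at 4% O2 and 480 and 929 at 20% O2. Scaled to 1000000 island reads of its library these were 161.6, 134.9, 233.3 and 108, so the levels overlapped. Its log2 ratio of 4% to 20% O2 was 0.12 ± 0.35 (SE, edgeR adjusted p = 0.993), and it was below 0 when scaled to all island reads. POLR2S5 had 2 regions. That over Hoxc10 and Hoxc9, chr15:102961601-102990200, held 1733 and 1967 reads at 4% O2 and 710 and 1766 at 20% O2, with a log2 ratio of 0.33 ± 0.29 (edgeR adjusted p = 0.999). Scaled to 1000000 island reads these were 157.8, 163.8, 119.8 and 142.7, so both 4% O2 libraries were above both of 20% O2. The share of all POLR2S5 regions in that order was not computed, so the order cannot be called particular to Hoxc. That over Hoxc8, Hoxc6 and Hoxc5, chr15:102991201-103022800, held 1452 and 1422 reads against 987 and 1531, with a log2 ratio of -0.17 ± 0.31 (edgeR adjusted p = 0.999). Its scaled values, 132.2, 118.4, 166.5 and 123.7, overlapped.

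The POLR2S2 region, chr15:102965801-103022600, spanned Hoxc10 to Hoxc4 and held 2098 and 2892 reads at 4% O2 and 74 and 1307 at 20% O2. Its log2 ratio was 1.32 ± 0.95 (edgeR adjusted p = 0.809) and 2.03 with the replicate block (edgeR adjusted p = 0.283). The 74 reads decide its size: without 20% O2 replicate 1 the log2 ratio was 0.47, and without 20% O2 replicate 2 it was 3.69 (edgeR adjusted p = 0.172). Scaled to 1000000 island reads the 4 values were 201.1, 174.2, 15.2 and 134.7, so both 4% O2 libraries were above both of 20% O2. Here too the share of all POLR2S2 regions in that order was not computed, so the order cannot be called particular to Hoxc. The islands in it covered 50.4, 44, 3 and 35.2 kb in the same order, and with length as an offset the log2 ratio was -0.11.

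The POLR2 island over Hoxc10 and Hoxc9 entered no fit, because 20% O2 replicate 1 had none. It held 1275 and 2046 reads at 4% O2 and 1666 in 20% O2 replicate 2. A smaller POLR2 island inside Hoxc4 held 120, 234 and 196 reads in the same libraries, and lay on the acetylated stretch there. In 4% O2 replicate 2 it ended at 103035000, past the inner start.

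Genes that act with or on Hox genes were read against the same 50% of all genes with H3K9ac at the start in all 4 libraries. Where the strand of a listed gene was not known, a call at either end of it counted, unlike in that 50%. H3K9ac was called in all 4 libraries for 8 of 9 HOX cofactors, homeodomain proteins of the Pbx, Meis and Pknox families that bind DNA beside HOX proteins. The exception was Pknox2, in 3 libraries. It was there for 5 of 5 genes of the trithorax side, whose complexes methylate histone H3 at active genes and maintain Hox expression: Kmt2a, Kmt2b, Men1, Wdr5 and Ash2l. Of 11 upstream patterning genes 4 were acetylated in all 4 libraries, a share below that of all genes, and 7 in none. Among those acetylated were Rara and Rarg, receptors for retinoic acid, and Cyp26b1, an enzyme that breaks it down. Cdx1, Cdx2 and Cdx4, activators of Hox genes, had none, and Evx1 and Evx2, homeobox genes beside Hoxa and Hoxd, had none.

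Kmt2b, a histone methyltransferase, and Wdr5, a subunit of such complexes, were called by 6 antibodies in all 4 libraries each. Evx2 had CTCF and RAD21 at its start in 4 of 4 libraries without acetylation. No gene of these 4 lists was called in both libraries of 1 oxygen level and neither of the other, for any antibody.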

How the data were processed

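The deposited data are interval lists from chromatin immunoprecipitation in N1E115 cells, 24 libraries of 6 antibodies; 6 input samples were not used here. Reads were aligned to mm10 with BWA and handled with Picard, MACS2 and SICER, per the submitters' processing notes. No label or file header names their versions. The CTCF, RAD21 and H3K9ac lists hold deposited peaks with a score on a −log10 scale of p or q, taken as such from their values. The polymerase lists hold islands with deposited read counts per island, in windows of 200 bp. Calling thresholds and depth set which regions are listed and how far islands reach.

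Interval lists of both replicates were deposited under the replicate 1 sample. Those of replicate 2 were assigned by matching scores with the list under its own sample (12 of 12 groups), and all values by replicate rest on this reading. The replicate number stands for a flow cell shared by both oxygen levels, per the file headers, except that CTCF replicate 1 had a flow cell of its own. Departures from the group mean, compared between libraries of equal number, correlated at 0.531 (POLR2), 0.550 (POLR2S5) and 0.390 (POLR2S2) over regions, with 2 pairs.

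Genes are RefSeq protein-coding genes; of 39 Hox genes 22 were in the promoter table and 17 took the strand of their cluster. Covered kilobases were compared with exact permutation tests, and island reads with edgeR 4.0.16 (TMM scaling, its filter on low counts, Benjamini-Hochberg over all regions called in all 4 libraries) in R 4.3.3, with DESeq2 1.42.0 as an alternative. Requiring a call in all 4 libraries leaves out regions lost in 1 of them. Scripts were tested on simulated data. The genes named follow a rule: the first and last acetylated member of a cluster and the next outside, members called at 1 oxygen level only, members with polymerase in all 4 libraries of a form, and regions called in all 4. Some single genes that enter the counts are not reported here by name. Members and lists were chosen with earlier results of these data known. Alternatives were another flank, window, gap, score threshold, list length, overlap, scaling, replicate block, island length as an offset, leaving out each library, and, chosen after seeing the data, the other starts in the promoter table.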

Additional observations from a re-analysis of the deposited data

How the results depend on the processing

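No setting brought a Hox region past an adjusted p of 0.05, and where a value below moved the cause was not tested. The coverage difference of RAD21 (4% minus 20% O2, -0.43 kb) turned to 0.25 kb with a flank of 50 kb and 0.056 kb with lists of equal length. As libraries were left out in turn it ranged from -2.74 to 1.87 kb, that of H3K9ac from -4.83 to 8.63 kb and that of POLR2S5 from -12.4 to 3 kb. The other 3 antibodies kept the sign under each alternative run, POLR2 from 2.9 to 41.7 kb as libraries were left out.

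Hox starts called for CTCF numbered 8 with 2.5 kb to either side and 1 when a call had to cover more of the window, and for RAD21 5 with 2.5 kb. As libraries were left out the counts ranged from 1 to 4 for POLR2 and 0 to 4 for POLR2S2. The H3K9ac count was 3 or 4 throughout. The shares over all genes were not computed under these alternatives. The longest Hoxc stretch became 40.13 kb with gaps of up to 10 kb joined and 49.74 kb where 1 library sufficed, and 7.335 kb with gaps of up to 2 kb or with only calls above the median of their list.

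Regions passing numbered 1 (POLR2), 19 (POLR2S5) and 53 (POLR2S2) by DESeq2 and 2, 3 and 11 with the replicate block. As libraries were left out they ranged from 0 to 195 for POLR2 and 0 to 50 for POLR2S5, both highest without 20% O2 replicate 2, and 0 for POLR2S2. The filter on low counts removed no region. Scaling to all island reads moved the median POLR2 log2 ratio to -0.29, and island length as an offset moved the medians to -0.48, -0.30 and -0.37. The POLR2 ratio at Hoxc6 was then -0.20 and -0.97, and ranged from -0.11 to 0.41 as libraries were left out. With length as an offset the POLR2S5 ratio at Hoxc8 to Hoxc5 was 0.55 and the POLR2S2 ratio -0.11. The former ranged from -0.33 to 0.036 as libraries were left out. The replicate block changed no other call.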
